A study of Mus musculus musculus x Mus musculus castaneus with 8 samples.

Results

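The genes described here are 36 genes of DNA damage signalling and repair, chosen by name from what their products are known to do. Earlier results of these data were known when these genes were chosen. They were looked up in a table of raw gene counts, and all 36 were found among its 24421 genes. All 36 also passed the filter on low counts that left 12643 genes for testing. They fall into 7 roles: the damage kinases with the histone variant gene H2afx (5 genes), the MRE11-RAD50-NBN complex (3), homologous recombination (10), the Fanconi anaemia pathway (10), nucleotide excision repair (3), translesion synthesis (3) and single-strand break repair (2).

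Total RNA was sequenced from tail fibroblasts of female mice that are F1 hybrids of Mus musculus musculus and Mus musculus castaneus, so that a read over a sequence difference can be traced to its mus or cas allele. There were 4 groups of 2 libraries. One group received 5azadC (5-aza-2'-deoxycytidine), a cytidine analogue that is built into DNA and traps DNA methyltransferases. One received VX680, an inhibitor of the Aurora kinases that act in mitosis, and one received both (5azadC+VX680). Untreated cells received the solvent DMSO, in a volume matched to the drug plates, so that all groups share the solvent, the hybrid background and the sex. The plates (15 cm) were kept for 72 h, with drug added 24 h after plating. The drug doses, and whether replicates were separate cultures, are not given in the sources used here. All p-values therefore reflect the variation among these 8 libraries and no wider one, and it may be technical. Per its title, the series concerns the silent X chromosome and the joint action of DNA methylation and Aurora kinases on it.

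Cells repair DNA by several routes. The kinases Atm and Atr sense double-strand breaks and stalled replication forks and signal through Chek2 and Chek1 to halt the cell cycle. Breaks are rejoined from an intact copy by homologous recombination, to which Brca1 and Brca2 belong. Crosslinks and trapped proteins at the replication fork are handled by the Fanconi anaemia proteins, bulky lesions by nucleotide excision repair, and damage left in the template is bypassed by translesion polymerases. 5azadC leaves DNA methyltransferase bound to DNA, and Aurora inhibition makes cells fail to divide. Many repair genes are expressed most in S phase, so their level in a culture also varies with how many cells are cycling.

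The libraries held between 6908503 and 11169532 reads in genes, and untreated replicate 1 was the deepest. Replicates spread over the members by 5.56 (5azadC), 1.88 (VX680), 2.61 (5azadC+VX680) and 5.31 (untreated) times counting error, as chi-square per degree of freedom. Fibroblast markers were abundant in each library, but their summed level was lower in treated cells. For the 8 markers it was 22350 to 25910 CPM (read counts scaled to library size) with 5azadC, 17100 to 17340 with VX680 and 14400 to 14940 with both, against 34250 to 39000 in untreated cells. With 5azadC, VX680 and both, 2 of the 8 rose and 5 fell in each comparison. The summed level of the 4 keratinocyte markers reached at most 2.66 CPM in any library, and the leukocyte markers Cd3e and Adgre1, the melanocyte marker Tyr and the adipocyte marker Cidec were at 0 in all 8. The 5 leukocyte markers summed to 15.7 to 21.0, 20.1 to 20.6 and 18.8 to 24.8 CPM with 5azadC, VX680 and both, against 15.4 to 18.9 in untreated cells. The 4 endothelial markers summed to 1.23 to 2.19, 3.73 to 5.59 and 3.73 to 3.94 CPM, against 0.635 to 1.03 in untreated cells. The 4 skeletal muscle markers summed to 38.4 to 46.5, 26.4 to 28.9 and 25.5 to 27.1 CPM, against 19.8 to 20.6. The 4 adipocyte markers summed to 3.34 to 3.43, 13.2 to 16.2 and 19.8 to 20.6 CPM, against 0.586 to 2.08. The 4 chondrocyte markers summed to 25.4 to 28.9, 9.86 to 12.4 and 17.0 to 19.5 CPM, against 27.7 to 30.05, and the 4 melanocyte markers to 0.686 to 2.01, 2.75 to 5.06 and 1.26 to 2.76 CPM, against 4.62 to 5.72. The part of these shifts in the results below was not tested. In bulk RNA, fewer cells of a type and less RNA per cell cannot be told apart.

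Per length of transcript, the members spanned a wide range in untreated cells. H2afx stood highest at 562 ± 46.0 CPM per kilobase (SD, n = 2), followed by Xrcc1 at 56.4 ± 5.44 and Parp1 at 49.9 ± 2.02. The gap between H2afx and Xrcc1 was larger than the spread of either, while Xrcc1 and Parp1 lay about as far apart as their SDs. The median member had 6.87 CPM per kilobase, and the lowest were Atr at 2.35 ± 0.037, Fancl at 1.91 ± 0.233 and Fancb at 1.36 ± 0.380 CPM per kilobase. The summed level of the 36 members was 2210 to 2298 CPM with 5azadC, 2194 to 2224 with VX680 and 2343 to 2371 with both, against 2295 in each of the untreated libraries. H2afx alone made up 31.3% to 40.9% of this sum. The other 35 members summed to 1305 to 1450 CPM with 5azadC, 1338 to 1400 with VX680 and 1410 to 1454 with both, against 1489 to 1578 CPM in untreated cells. Without H2afx each treated library thus lay below the untreated ones at the scaling used for CPM here (TMM). The TMM factor was 0.941 for untreated replicate 2 and 1.043 for VX680 replicate 2. With library totals alone these libraries change order, so the separation depends on the scaling.

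Each treatment was compared with untreated cells to ask which repair genes changed. Genes below are said to rise or fall when the adjusted p was under 0.05 by edgeR's quasi-likelihood test with Benjamini-Hochberg adjustment over 12643 genes. With 5azadC, 1 of 36 members rose (2.78%) and 8 fell (22.2%), against 22.6% of all genes higher and 19.6% lower. With VX680, again 1 rose and 8 fell, against 23.8% of all genes higher and 22.4% lower. With both drugs 3 rose (8.33%) and 9 fell (25.0%), against 28.4% higher and 27.3% lower. The share of members that fell was thus near that of all genes in each comparison, and the share that rose was below it. The difference of these shares was not tested. In all, 16 members (44.4%) were past the threshold in at least 1 of these comparisons, against 65.2% of all genes. The 6 genes Brca2, Brip1, Fanca, Fancg, Polk and Xrcc2 (16.7%) were past it in all 3, against 30.3% of all genes. The 3 comparisons share the untreated libraries.

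**Figure D1:**
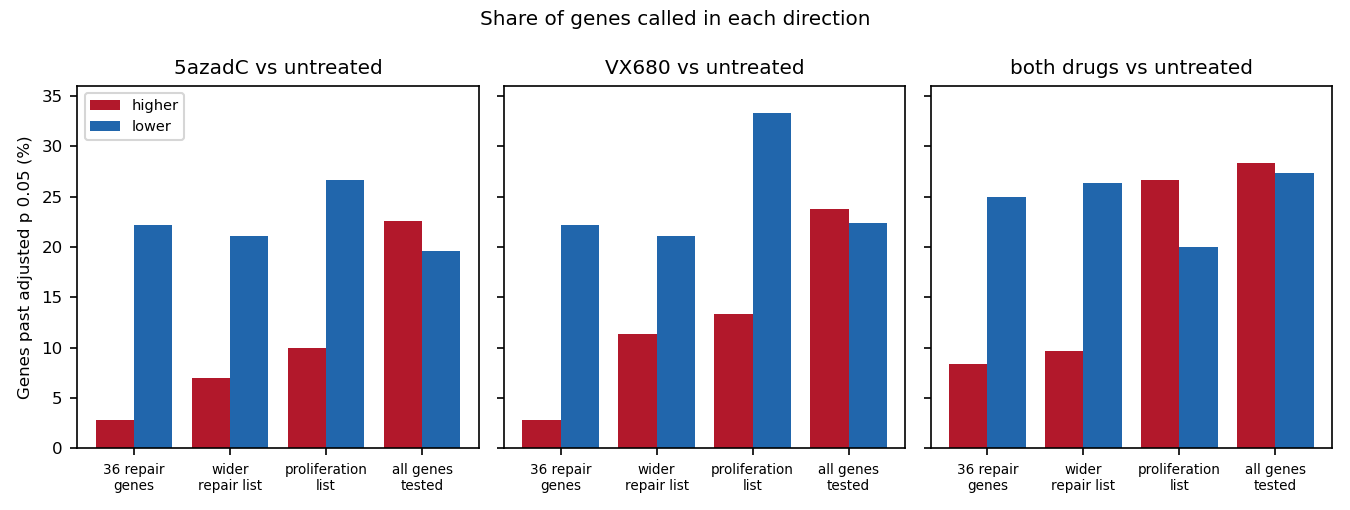
Share of genes past an adjusted p of 0.05 (vertical axis, percent), higher (red) and lower (blue), among the 36 repair genes, 114 tested genes of a wider repair list, 30 proliferation genes and all 12643 genes tested, in the 3 treated groups against untreated cells. The red bars of the repair genes reach 2.78%, 2.78% and 8.33%, lower than those of all genes, and their blue bars 22.2%, 22.2% and 25.0%, close to those of all genes.

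The median log2 fold change of the members was -0.13 with 5azadC and -0.16 with VX680, against 0.00 and 0.01 for all genes. It was -0.07 with both drugs, against 0.01 for all genes. When libraries were scaled by their totals alone, the median of all genes moved to 0.11 with VX680 and 0.12 with both drugs, and that of the members to -0.05 with VX680 and 0.03 with both, so the sign for both drugs depended on the scaling. Under that scaling 3590 genes were higher and 2222 lower with VX680, against 3005 and 2829 in the main test. Likewise 2 members rose and 5 fell with VX680, and 4 rose and 6 fell with both. Single libraries also moved the members' median. Without untreated replicate 1 it was -0.08 with 5azadC, -0.06 with VX680 and -0.00267 with both, and without untreated replicate 2 it was -0.23, -0.26 and -0.18. With 5azadC it was -0.24 without 5azadC replicate 1 and -0.06 without 5azadC replicate 2. With both drugs it was -0.12 without 5azadC+VX680 replicate 1 and -0.15 without 5azadC+VX680 replicate 2. At least 2-fold changes were called for 0, 1 and 1 members with 5azadC, VX680 and both, against 13.8%, 15.3% and 23.0% of all genes. Calls over all genes also changed in number when 1 library was left out. The counts of members without 1 library are therefore not a result about the members alone. Without untreated replicate 1, the falls numbered 5 with 5azadC and 4 with VX680, and 1 member rose with both drugs. There were also 4 falls with VX680 without VX680 replicate 2, 5 falls with both drugs without 5azadC+VX680 replicate 1, and 2 rises with 5azadC without 5azadC replicate 1.

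**Figure D2:**
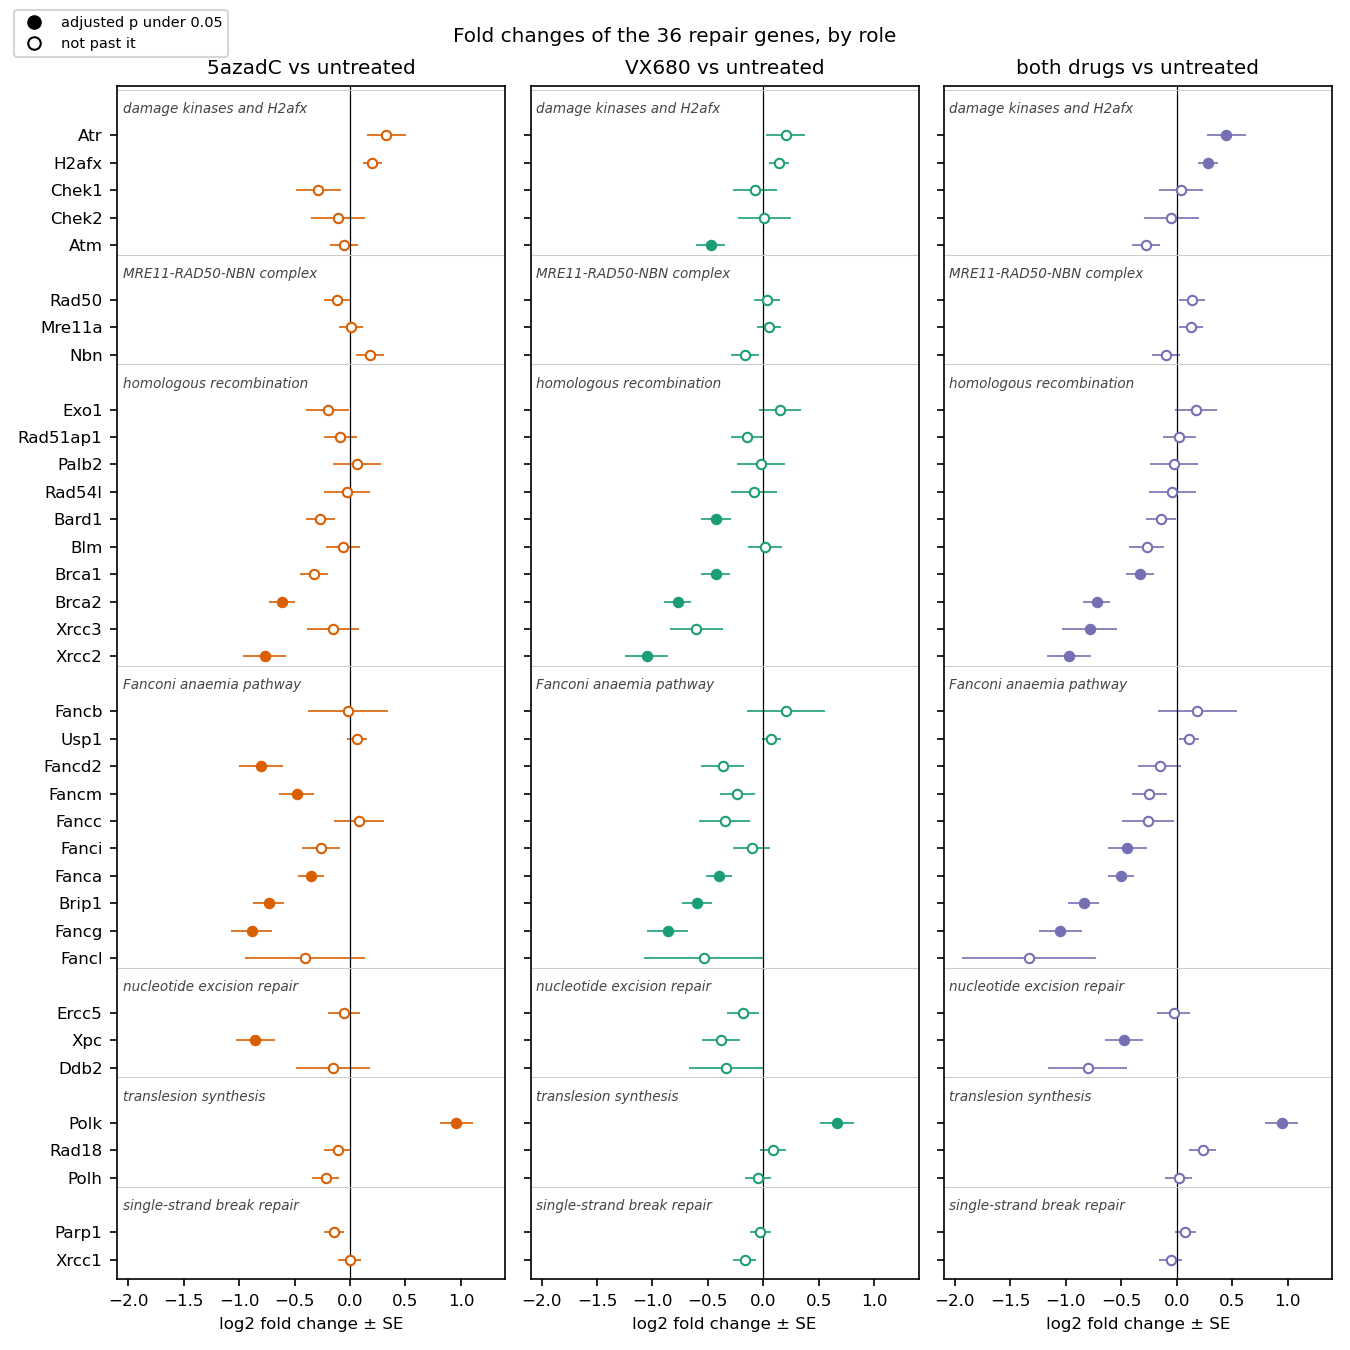
Log2 fold change ± SE of each repair gene (rows, grouped by role) in 5azadC, VX680 and both drugs against untreated cells (3 panels, 2 libraries per group). Filled points have an adjusted p under 0.05. The homologous recombination and Fanconi anaemia genes make up 20 of the 36 rows and hold 7, 7 and 8 of the filled points left of 0, and Polk lies to the right at 0.96, 0.66 and 0.95. Of all genes 19.6%, 22.4% and 27.3% fell, and no difference between roles was tested.

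Of the damage kinases and H2afx, none was called with 5azadC, Atm fell with VX680, and Atr and H2afx rose with both drugs. Atm, the kinase activated at double-strand breaks (chromosome 9), had 75.2 and 60.8 CPM with 5azadC, 53.02 and 48.7 with VX680 and 55.8 and 61.3 with both, against 77.0 and 64.2 CPM in untreated cells. The VX680 libraries and those with both drugs lay below both untreated ones, whereas 5azadC and untreated libraries overlapped. For both drugs this depends on the scaling, since 5azadC+VX680 replicate 2 lies above untreated replicate 2 with library totals alone. Its log2 fold change was -0.48 ± 0.13 (SE) with VX680 (adjusted p = 0.00798), and -0.06 ± 0.13 with 5azadC (adjusted p = 0.751). With both drugs it was -0.28 ± 0.13 (adjusted p = 0.0847). The VX680 call of Atm was lost without VX680 replicate 2 (adjusted p = 0.0752) and without untreated replicate 1 (adjusted p = 0.0959), and with limma on the authors' signal (adjusted p = 0.0544).

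Atr, the kinase of stalled forks (chromosome 9), had 25.5 and 21.7 CPM with 5azadC, 22.9 and 20.4 with VX680 and 22.1 and 29.3 with both, against 19.0 and 18.6 CPM in untreated cells. All 6 treated libraries lay above both untreated ones. The rise passed the test only with both drugs (0.45 ± 0.18, adjusted p = 0.0452), with 0.33 ± 0.18 for 5azadC (adjusted p = 0.153) and 0.20 ± 0.18 for VX680 (adjusted p = 0.371). Atr was not called in the comparisons between drugs or in the interaction described later. The Atr call was lost without VX680 replicates 1 (adjusted p = 0.0656) and 2 (0.0641), 5azadC+VX680 replicate 2 (0.407) and untreated replicates 1 (0.133) and 2 (0.136), with DESeq2 (0.0831) and with the replicate number as a block (0.0567). In the reference annotation Atr overlaps a small nuclear RNA gene on its own strand, whose reads could be shared with it.

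H2afx, the histone variant that is phosphorylated around breaks (chromosome 9), was the most abundant member. It had 848 and 905 CPM with 5azadC, 857 and 824 with VX680 and 962 and 890 with both, against 718 and 806 CPM in untreated cells. All 6 treated libraries lay above both untreated ones. With both drugs the log2 fold change was 0.28 ± 0.09 (adjusted p = 0.0163), with 5azadC 0.20 ± 0.09 (adjusted p = 0.0864) and with VX680 0.14 ± 0.09 (adjusted p = 0.215). The H2afx call was lost without 5azadC+VX680 replicate 1 (adjusted p = 0.153) and without untreated replicate 1 (adjusted p = 0.162). With library totals alone H2afx was also called with VX680 (0.25, adjusted p = 0.0216). These are levels of its RNA, and phosphorylation was not measured.

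The checkpoint kinase genes were not called in any comparison. Chek1, which acts after Atr, had 15.2 and 14.0 CPM with 5azadC, 18.6 and 14.9 with VX680 and 16.7 and 19.9 with both, against 20.04 and 15.2 CPM in untreated cells. Chek2, which acts after Atm, had 9.48 and 16.6 CPM with 5azadC, 14.7 and 13.2 with VX680 and 13.4 and 13.5 with both, against 13.5 and 14.4 CPM in untreated cells. At the TMM scaling only the Chek1 values of 5azadC stood clear of the untreated ones, just below them. Their log2 fold change was -0.29 ± 0.20 (adjusted p = 0.278). With library totals alone these Chek1 values overlap with the untreated ones. With both drugs the log2 fold change of Chek2 was -0.05 (adjusted p = 0.877), with a 95% interval from -0.53 to 0.43.

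**Figure D3:**
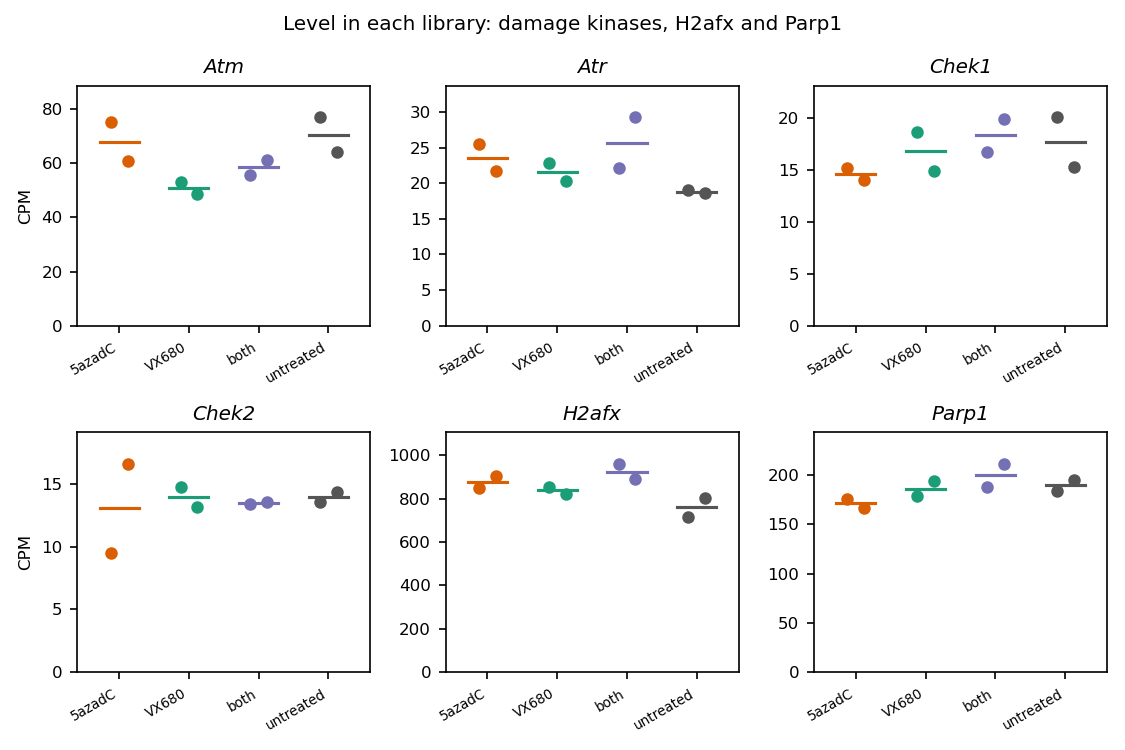
Level (vertical axis, CPM from 0) of Atm, Atr, Chek1, Chek2, H2afx and Parp1 in each library, 2 points per group with their mean as a line. The groups run 5azadC, VX680, both drugs, untreated. The VX680 points of Atm, at 53.02 and 48.7, lie below the untreated points, and the points of Atr and H2afx in treated cells lie above the untreated ones.

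None of the 3 genes of the MRE11-RAD50-NBN complex, which binds broken ends and starts their resection, was called in any of these comparisons. Their log2 fold changes ran from -0.12 to 0.18 with 5azadC, from -0.17 to 0.05 with VX680 and from -0.10 to 0.14 with both. Rad50, the coiled-coil subunit, had 65.0 and 53.8 CPM with 5azadC, 62.8 and 69.4 with VX680 and 73.1 and 68.9 with both, against 67.4 and 61.6 CPM in untreated cells. The nuclease gene Mre11a had 63.8 and 55.1, 60.0 and 63.0, and 63.3 and 66.4 CPM with 5azadC, VX680 and both, against 60.7 and 57.6 CPM in untreated cells. Nbn, the subunit that recruits Atm, had 59.4 and 52.8, 43.2 and 45.0, and 48.1 and 44.7 CPM with 5azadC, VX680 and both, against 54.7 and 43.8 CPM in untreated cells. With both drugs, the libraries of Rad50 and Mre11a lay just above the untreated ones, while the other groups, and all groups for Nbn, overlapped with them.

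Among 10 genes of homologous recombination, 2 fell with 5azadC, 4 with VX680 and 4 with both drugs, and none rose. Beside them, 19.6%, 22.4% and 27.3% of all genes fell, and no difference of these 10 genes from those shares was tested. Brca2, a core factor of homologous recombination (chromosome 5), had 78.1 and 61.6 CPM with 5azadC, 58.4 and 67.2 with VX680 and 63.0 and 66.8 with both, against 109.6 and 104.4 CPM in untreated cells. All 6 treated libraries lay well below both untreated ones. The log2 fold changes were -0.61 ± 0.12 with 5azadC (adjusted p = 0.0011), -0.77 ± 0.12 with VX680 (adjusted p = 0.000154) and -0.72 ± 0.12 with both (adjusted p = 0.00019). Each Brca2 call held in all 16 alternative ways of processing, of which 8 leave out 1 library each.

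Xrcc2, another recombination gene (chromosome 5), had 12.2 and 11.4 CPM with 5azadC, 9.52 and 9.86 with VX680 and 10.4 and 10.1 with both, against 18.7 and 21.7 CPM in untreated cells. Treated and untreated libraries did not overlap. It fell by 0.77 ± 0.19 on the log2 scale with 5azadC (adjusted p = 0.0057), by 1.05 ± 0.20 with VX680 (adjusted p = 0.000608) and by 0.97 ± 0.20 with both (adjusted p = 0.000891). The VX680 fall of Xrcc2 was the only called change of a member past 2-fold in that comparison. Each Xrcc2 call also held in all 16 alternatives.

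Xrcc3, also a gene of homologous recombination (chromosome 12), had 15.6 and 9.87 CPM with 5azadC, 9.23 and 9.59 with VX680 and 8.44 and 8.14 with both, against 14.2 and 14.4 CPM in untreated cells. The 5azadC libraries stood apart from each other, 1 above and 1 below the untreated level. Xrcc3 overlaps Klc1 on the opposite strand. With both drugs Xrcc3 fell by 0.79 ± 0.25 (adjusted p = 0.0147), with VX680 its log2 fold change was -0.60 ± 0.24 (adjusted p = 0.0517), and with 5azadC it was -0.16 ± 0.23 (adjusted p = 0.626). The fall with both was lost without 5azadC+VX680 replicates 1 (adjusted p = 0.0588) and 2 (adjusted p = 0.0719). Without 5azadC replicate 1 or 2 the VX680 value of Xrcc3 was called (adjusted p = 0.017 and 0.0133).

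Brca1 and Bard1 encode the partners of a ubiquitin ligase that promotes resection. Brca1 had 52.3 and 42.1 CPM with 5azadC, 46.6 and 41.2 with VX680 and 44.6 and 49.7 with both, against 61.1 and 57.3 CPM in untreated cells. Bard1 had 33.2 and 28.9 CPM with 5azadC, 27.5 and 28.4 with VX680 and 35.99 and 32.0 with both, against 37.3 and 37.8 CPM in untreated cells. For both genes the treated libraries lay below the untreated ones at the TMM scaling. For Bard1 this depends on the scaling, since 5azadC+VX680 replicate 1 lies above the untreated libraries with library totals alone. Brca1 fell with VX680 (-0.43 ± 0.13, adjusted p = 0.0136) and with both drugs (-0.33 ± 0.13, adjusted p = 0.0418), and had an adjusted p of 0.0551 with 5azadC (-0.33 ± 0.13). Bard1 fell with VX680 (-0.43 ± 0.13, adjusted p = 0.0171), with -0.27 ± 0.13 for 5azadC (adjusted p = 0.119) and -0.14 ± 0.13 for both (adjusted p = 0.382).

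These calls were less firm than those of Brca2 and Xrcc2. The VX680 call of Brca1 was lost without VX680 replicate 2 (adjusted p = 0.124) and untreated replicate 1 (0.0775). That of Bard1 was lost without VX680 replicates 1 (0.104) and 2 (0.0668) and untreated replicates 1 (0.0513) and 2 (0.0557). The Brca1 call with both drugs was lost without any 1 of VX680 replicates 1 (0.0535) and 2 (0.0524), 5azadC+VX680 replicates 1 (0.224) and 2 (0.0618) and untreated replicates 1 (0.158) and 2 (0.0628). With library totals alone, the adjusted p was 0.066 for Brca1 and 0.0729 for Bard1 with VX680, and 0.181 for Brca1 with both. With limma on the authors' signal it was 0.0758, 0.0813 and 0.193 for these calls. DESeq2 also lost the call of Brca1 with both (adjusted p = 0.0866).

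The remaining 5 recombination genes were not called. Palb2, which bridges Brca1 and Brca2, had 10.4 to 13.8 CPM over the 8 libraries. Rad51ap1 and Rad54l, which act in strand exchange, had 24.6 to 30.1 and 15.98 to 25.8 CPM. The helicase gene Blm had 26.0 to 34.6 CPM and the resection nuclease gene Exo1 20.6 to 36.3 CPM. The lowest Exo1 value was that of 5azadC replicate 2, while replicate 1 of that group had 33.2 CPM. The log2 fold changes of these 5 genes against untreated cells lay between -0.27 (Blm, both drugs) and 0.18 (Exo1, both drugs).

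**Figure D4:**
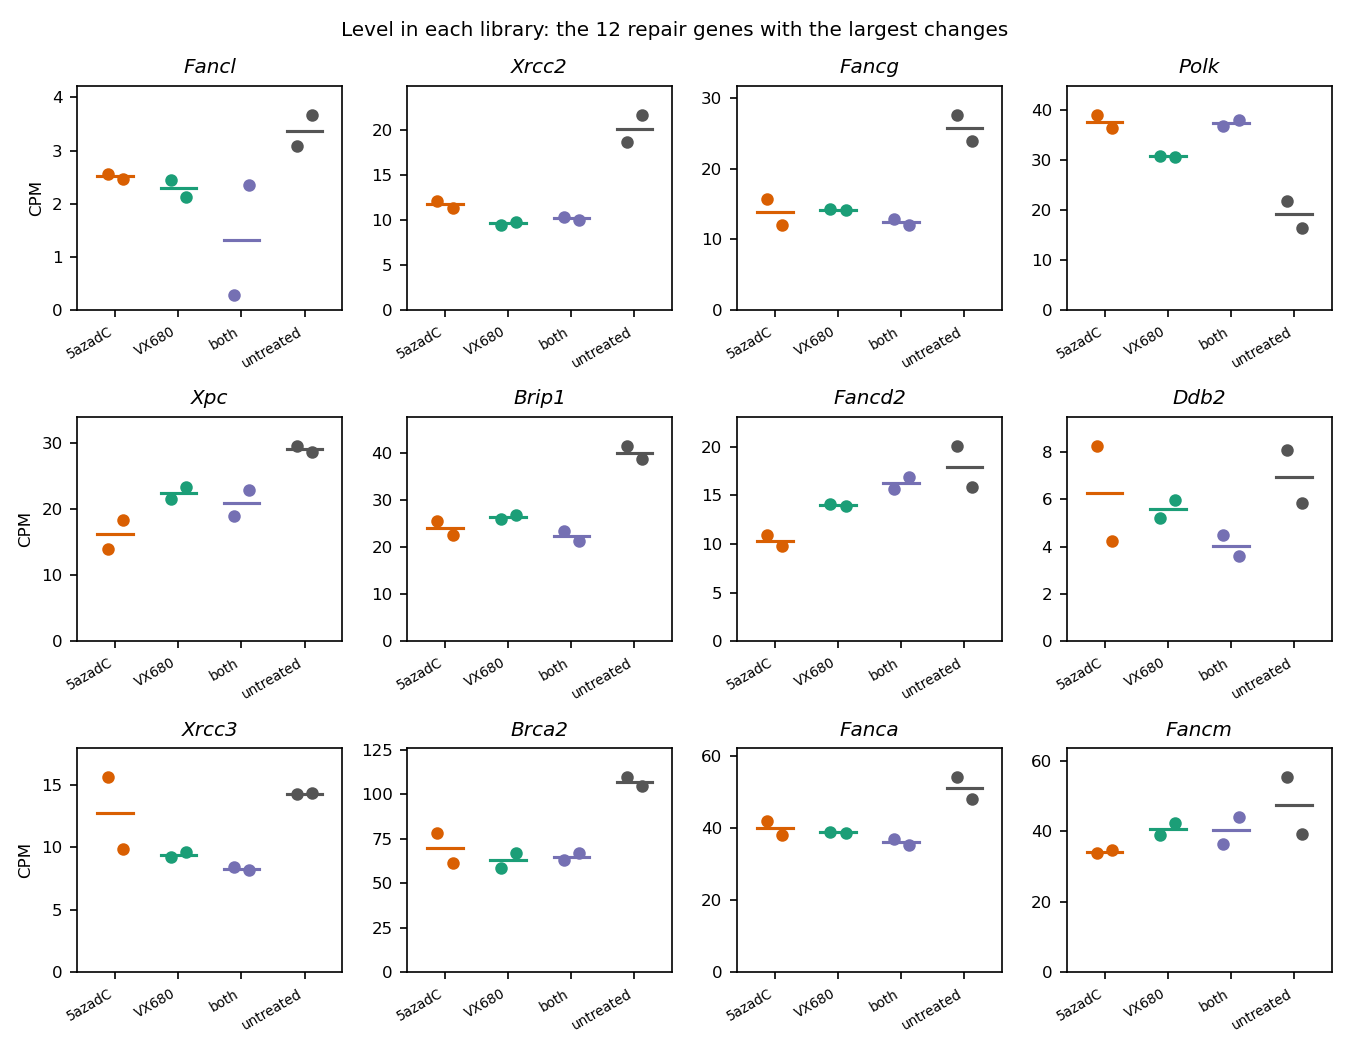
Level (vertical axis, CPM from 0, own scale per panel) of the 12 repair genes with the largest log2 fold changes against untreated cells, in each library (points) with the group mean (line), in the order 5azadC, VX680, both drugs, untreated. Brca2, Xrcc2, Fancg and Brip1 lie lower in each treated library than in the untreated ones, Polk lies higher, and 1 library with both drugs has Fancl at 0.281 CPM.

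In the Fanconi anaemia pathway, 5 of 10 genes fell with 5azadC, 3 with VX680 and 4 with both drugs, and none rose. Of all genes 19.6%, 22.4% and 27.3% fell, and no difference of a role of 10 genes from these shares was tested. Fancg, Fanca and Brip1 fell in each treatment. Fancg, a subunit of the core complex (chromosome 4), had 15.7 and 12.1 CPM with 5azadC, 14.2 and 14.1 with VX680 and 12.9 and 12.01 with both, against 27.6 and 23.9 CPM in untreated cells. No treated library came near the untreated level. Its log2 fold changes were -0.89 ± 0.19 (adjusted p = 0.0018), -0.86 ± 0.19 (adjusted p = 0.00178) and -1.05 ± 0.19 (adjusted p = 0.000365) with 5azadC, VX680 and both.

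Brip1, a helicase that binds Brca1 and is also named Fancj in humans (chromosome 11), had 25.5 and 22.6 CPM with 5azadC, 26.0 and 26.9 with VX680 and 23.5 and 21.4 with both, against 41.4 and 38.7 CPM in untreated cells. No treated library reached the untreated level. Brip1 fell by 0.73 ± 0.14 on the log2 scale with 5azadC (adjusted p = 0.000782), by 0.60 ± 0.14 with VX680 (adjusted p = 0.00253) and by 0.84 ± 0.14 with both (adjusted p = 0.000177). The calls of Fancg and Brip1 held in all 16 alternatives.

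Fanca, another core subunit (chromosome 8), had 42.0 and 38.0 CPM with 5azadC, 38.9 and 38.6 with VX680 and 36.8 and 35.3 with both, against 54.0 and 47.9 CPM in untreated cells. The groups did not overlap, and the distance was smaller than for Fancg. Fanca fell by 0.35 ± 0.12 with 5azadC (adjusted p = 0.0281), by 0.40 ± 0.12 with VX680 (adjusted p = 0.0131) and by 0.50 ± 0.12 with both (adjusted p = 0.00286). The last call held in all 16 alternatives. The 5azadC call was lost without 5azadC replicate 2 (adjusted p = 0.0876) and untreated replicate 1 (0.164), and the VX680 call without VX680 replicates 1 (0.0743) and 2 (0.0731) and untreated replicate 1 (0.0986). The 5azadC call of Fanca was also lost with DESeq2 (adjusted p = 0.0676), no filter (0.057) and in a fit of the compared groups (0.0712). The VX680 call was also lost with library totals alone (adjusted p = 0.0742) and limma on the authors' signal (0.0949). Fanca overlaps Zfp276 on the opposite strand in the reference annotation. The libraries were strand-marked, but whether the counting used strand is not given in the sources used here.

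Fancd2 and Fanci form the clamp that the core complex marks with ubiquitin. Fancd2 (chromosome 6) had 10.9 and 9.74 CPM with 5azadC, 14.1 and 13.8 with VX680 and 15.6 and 16.8 with both, against 20.04 and 15.8 CPM in untreated cells. The 5azadC libraries were lowest, those of VX680 lay between, and those with both drugs overlapped with the untreated ones. Fancd2 fell by 0.80 ± 0.20 with 5azadC (adjusted p = 0.0052). With VX680 its log2 fold change was -0.37 ± 0.19 (adjusted p = 0.133), and with both -0.16 ± 0.19 (adjusted p = 0.518). The 5azadC call was lost without untreated replicate 1 (-0.63, adjusted p = 0.063), and without that library the Fancd2 value with both drugs changed sign (0.02). Fancd2 overlaps Fancd2os on the opposite strand.

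Fanci showed another pattern, with 16.05 and 16.6 CPM with 5azadC, 18.0 and 18.4 with VX680 and 13.8 and 14.9 with both, against 20.2 and 18.8 CPM in untreated cells. Its treated libraries all lay below the untreated ones at the TMM scaling. With library totals alone both VX680 libraries lie above untreated replicate 2, so this separation depends on the scaling. Fanci fell with both drugs (-0.45 ± 0.17, adjusted p = 0.0411), and had -0.26 ± 0.17 with 5azadC (adjusted p = 0.237) and -0.11 ± 0.17 with VX680 (adjusted p = 0.636). The call held in only 4 of the 16 alternatives. It was lost with DESeq2 (adjusted p = 0.107), library totals alone (0.123), limma on the authors' signal (0.121) and no filter (0.081). Fits of the compared groups (0.0513) and with the replicate number as a block (0.0548) lost it too. It was also lost without VX680 replicates 1 (0.0602) and 2 (0.0597), 5azadC+VX680 replicates 1 (0.166) and 2 (0.0831) and untreated replicates 1 (0.146) and 2 (0.0597). Fanci overlaps Polg on the opposite strand.

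Fancm, the translocase that anchors the core complex to DNA (chromosome 12), had 33.9 and 34.6 CPM with 5azadC, 39.0 and 42.4 with VX680 and 36.3 and 44.2 with both, against 55.3 and 39.3 CPM in untreated cells. The 5azadC libraries lay below both untreated ones, and the other groups overlapped with them. The untreated libraries differed more from each other than those of any treated group. It fell by 0.48 ± 0.16 with 5azadC (adjusted p = 0.026), with -0.23 ± 0.16 for VX680 (adjusted p = 0.241) and -0.25 ± 0.16 for both (adjusted p = 0.202). Limma on the authors' signal (adjusted p = 0.053) and a fit of the compared groups (0.0588) lost the 5azadC call of Fancm. The 5azadC call was lost without 5azadC replicate 1 (adjusted p = 0.057) and without untreated replicate 1 (-0.22, adjusted p = 0.342). Without untreated replicate 1 the log2 fold change of Fancm was 0.03 with VX680 and 0.02 with both, and without untreated replicate 2 it was called with VX680 (-0.46, adjusted p = 0.0333) and with both (-0.47, adjusted p = 0.0245).

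Fancl, the ubiquitin ligase of the core complex (chromosome 11), had the member list's largest log2 fold change and its thinnest counts. It had 2.56 and 2.47 CPM with 5azadC, 2.46 and 2.13 with VX680 and 0.281 and 2.35 with both, against 3.08 and 3.66 CPM in untreated cells. The low value of 5azadC+VX680 replicate 1 came from 2 reads, and the other library of that group lay among the VX680 values. The log2 fold change was -1.33 ± 0.60 with both (adjusted p = 0.0746), -0.41 ± 0.54 with 5azadC (adjusted p = 0.577) and -0.54 ± 0.54 with VX680 (adjusted p = 0.444). Without 5azadC+VX680 replicate 2 the value with both was -3.51 (adjusted p = 0.00401), and without replicate 1 it was -0.51. Fancl overlaps Vrk2 on the opposite strand.

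The last 3 genes of the pathway were not called. Fancb, a core subunit on the X chromosome, had 4.24 and 3.84 CPM with 5azadC, 4.52 and 4.93 with VX680 and 3.52 and 5.80 with both, against 4.805 and 3.22 CPM in untreated cells. Each treated group of Fancb overlapped with the untreated libraries. Fancc, a core subunit, had 8.05 to 13.6 CPM over the 8 libraries, and Usp1, which removes the ubiquitin from Fancd2, had 138 to 158 CPM.

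Of the 3 genes of nucleotide excision repair, Xpc fell with 5azadC and with both drugs. Xpc, which recognises distorted DNA (chromosome 6), had 14.0 and 18.4 CPM with 5azadC, 21.5 and 23.3 with VX680 and 19.0 and 22.9 with both, against 29.6 and 28.7 CPM in untreated cells. All treated libraries lay below the untreated ones, those of 5azadC lowest. Xpc fell by 0.85 ± 0.17 with 5azadC (adjusted p = 0.00144) and by 0.48 ± 0.17 with both (adjusted p = 0.0292), and its log2 fold change with VX680 was -0.38 ± 0.17 (adjusted p = 0.0778). The 5azadC call held in all 16 alternatives. The call with both was lost without 5azadC+VX680 replicate 1 (adjusted p = 0.199) and untreated replicates 1 (0.103) and 2 (0.0693). It was lost with DESeq2 (0.0604) and with library totals alone (0.085), while the VX680 value of Xpc was called without 5azadC replicate 1 (0.0331) or 2 (0.0312).

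Ddb2, which binds ultraviolet lesions and is a p53 target in humans (chromosome 2), had 8.25 and 4.25 CPM with 5azadC, 5.20 and 5.99 with VX680 and 4.499 and 3.59 with both, against 8.07 and 5.86 CPM in untreated cells. Libraries with both drugs lay below the untreated ones, and the other groups overlapped with them. The log2 fold change of Ddb2 with both was -0.80 ± 0.36 (adjusted p = 0.071). It was called without 5azadC replicate 1 (adjusted p = 0.0301) or 2 (adjusted p = 0.0264), and Ddb2 overlaps Acp2 on the opposite strand. Ercc5, the nuclease that cuts beside the lesion, had 30.5 to 42.3 CPM over the 8 libraries and was not called.

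Polk, a translesion polymerase (chromosome 13), was the one member that rose in each treatment. It had 38.9 and 36.3 CPM with 5azadC, 30.7 and 30.6 with VX680 and 36.7 and 38.0 with both, against 21.8 and 16.4 CPM in untreated cells. Treated and untreated libraries stood well apart, with the VX680 libraries between the others. Polk rose by 0.96 ± 0.15 with 5azadC (adjusted p = 0.000198), by 0.66 ± 0.15 with VX680 (adjusted p = 0.00276) and by 0.95 ± 0.15 with both (adjusted p = 0.000127). Each of these calls held in all 16 alternatives. The other translesion genes were not called: Polh, the polymerase that bypasses ultraviolet dimers, had 53.8 to 72.0 CPM, and Rad18, the ligase that marks Pcna for bypass, had 36.9 to 51.3 CPM over the 8 libraries.

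The genes of single-strand break repair were not called. Parp1, the sensor of nicks (chromosome 1), had 176 and 167 CPM with 5azadC, 179 and 194 with VX680 and 188 and 211 with both, against 184 and 195 CPM in untreated cells. Its 5azadC libraries lay below the untreated ones and the other groups overlapped with them. The log2 fold change of Parp1 was -0.14 ± 0.09 with 5azadC (adjusted p = 0.24), -0.03 ± 0.09 with VX680 (adjusted p = 0.841) and 0.08 ± 0.09 with both (adjusted p = 0.517). Xrcc1, the scaffold of this repair, had 106 to 129 CPM over the 8 libraries. Altogether 20 of the 36 members were past the threshold in none of the 3 comparisons, with log2 fold changes between -1.33 (Fancl) and 0.23 (Rad18).

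The combination was then compared with each drug, to ask what the second drug added. Against 5azadC alone, 1 member rose and 0 fell, against 9.98% of all genes higher and 14.8% lower. With library totals alone this split of all genes turned, to 1944 higher and 1347 lower, against 1262 and 1877 in the main test, and 3 members rose. At an unadjusted p under 0.05, 2 members were lower, and DESeq2 and limma called 0 of them. The member that rose was Fancd2 (0.65 ± 0.20, adjusted p = 0.0321), whose 15.6 and 16.8 CPM with both lay above the 10.9 and 9.74 CPM with 5azadC. This call of Fancd2 was lost with DESeq2 (adjusted p = 0.0584) and without 5azadC replicate 2 (0.0826), VX680 replicates 1 (0.0558) and 2 (0.0555) or 5azadC+VX680 replicates 1 (0.0934) and 2 (0.161). The number of members called here changed when 1 library was left out. Calls over all genes changed in number too, so this is not particular to the members.

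Against VX680 alone, no member was called, against 2.45% of all genes higher and 4.05% lower. Not 1 member had an unadjusted p under 0.05, and DESeq2 and limma called 0 as well. The log2 fold changes of the 36 members lay between -0.80 and 0.28. For Polk the difference was 0.28 ± 0.15 (adjusted p = 0.297), for Fancd2 0.21 ± 0.20 (adjusted p = 0.598) and for Brca2 0.05 ± 0.12 (adjusted p = 0.88). Between the single drugs, 5azadC against VX680, 1 member was higher and 0 lower, against 9.33% of all genes higher and 6.47% lower. With library totals alone 782 genes were higher and 1267 lower, against 1180 and 818 in the main test. At an unadjusted p under 0.05, 2 members were lower, of which DESeq2 called 0 and limma on the authors' signal 1.

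The member that differed between the single drugs was Atm. It had 75.2 and 60.8 CPM with 5azadC, against 53.02 and 48.7 CPM with VX680, and the groups did not overlap. The difference was 0.42 ± 0.13 on the log2 scale (adjusted p = 0.0419). The Atm call was lost with DESeq2 (0.0742), library totals alone (0.155), without 5azadC replicate 1 (0.226), without VX680 replicates 1 (0.127) and 2 (0.261) and without 5azadC+VX680 replicates 1 (0.0645) and 2 (0.0639). Leaving out 1 library changed the number of members called between the single drugs. It also changed the number of calls over all genes, so this is not particular to the members.

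A further test asked whether the effect of both drugs differed from the sum of the single effects on the log2 scale. In this interaction 2 members lay above the sum and 1 below, against 4.95% of all genes above and 10.6% below. Fancd2 lay above it by 1.01 ± 0.28 (adjusted p = 0.0254), having fallen by 0.80 with 5azadC, while its values were -0.37 with VX680 and -0.16 with both. Brca2 lay above it by 0.66 ± 0.17 (adjusted p = 0.0196), with falls of 0.61, 0.77 and 0.72 with 5azadC, VX680 and both. Polk lay below it by -0.68 ± 0.21 (adjusted p = 0.0435), with rises of 0.96, 0.66 and 0.95. For Brca2 and Polk the change with both drugs was therefore about the size of that with 1 drug. Interaction calls over all genes also changed in number when 1 library was left out, so the following counts are not particular to the members. The number of members above the sum was 5 without 5azadC replicate 1, 3 without 5azadC replicate 2 or untreated replicate 2, 1 without VX680 replicate 2 and 0 without VX680 replicate 1, 5azadC+VX680 replicate 1 or 2 or untreated replicate 1. The median interaction of the 36 members was 0.22, against -0.03 for all genes. It was 0.17 for the wider repair list and 0.25 for the proliferation list, both described below, so the shift was not particular to the members. For the members it was 0.14 without VX680 replicate 1, 0.14 without untreated replicate 1, 0.15 without 5azadC replicate 2 and 0.30 without 5azadC replicate 1.

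A wider list of 115 other repair and damage genes, 114 of them tested, gives the rest of the pathways. With 5azadC 8 rose and 24 fell, with VX680 13 rose and 24 fell, and with both drugs 11 rose and 30 fell. The shares that fell, 21.1%, 21.1% and 26.3%, were near the 19.6%, 22.4% and 27.3% of all genes. The shares that rose, 7.02%, 11.4% and 9.65%, were below the 22.6%, 23.8% and 28.4% of all genes, a difference that was not tested. Their median log2 fold changes were -0.16, -0.10 and -0.13. Calls over all genes also changed in number when 1 library was left out, so the following counts are not particular to this list. Without untreated replicate 1 there were 15 falls with 5azadC, and 8 rises and 14 falls with VX680. There were 8 rises with VX680 without untreated replicate 2, 11 falls without VX680 replicate 1 and 5 rises without VX680 replicate 2. With both drugs there were 18 rises without 5azadC replicate 1 or 2, 17 falls without 5azadC+VX680 replicate 2, and 23 rises with library totals alone.

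Neil3, a glycosylase that removes oxidised bases, fell in each treatment, by 1.31 ± 0.20 with 5azadC, 1.30 ± 0.20 with VX680 and 1.44 ± 0.20 with both (adjusted p between 4.4e-05 and 0.000162). With 5azadC, the crosslink nuclease gene Dclre1a fell by 1.09 ± 0.12, Xrcc5, the Ku80 subunit of end joining, by 1.04 ± 0.16, and the glycosylase gene Neil1 by 0.997 ± 0.29. The Neil1 call was lost without 5azadC replicate 1 (adjusted p = 0.106) and untreated replicate 2 (adjusted p = 0.0723). With VX680, the recombination gene Rad51b fell by 1.23 ± 0.37, the glycosylase gene Mbd4 by 0.94 ± 0.20 and Rev3l, the catalytic subunit of polymerase zeta, by 0.88 ± 0.11. The Rad51b call was lost without VX680 replicates 1 (adjusted p = 0.0668) and 2 (0.0841) and untreated replicate 1 (0.116). With both drugs the recombination gene Rad51c fell by 1.32 ± 0.24, and the Fanconi core genes Fancf and Faap100 fell by 1.18 ± 0.18 and 1.11 ± 0.13. Their mean levels were also lower with each single drug. With 5azadC and VX680, Rad51c had 9.52 and 11.05 CPM, against 17.82 in untreated cells. Fancf had 40.49 and 34.64, against 57.64, and Faap100 29.14 and 34.61, against 50.27. Genes here and below are named by the 4 largest changes per comparison, so one named under 1 treatment may also have changed in others.

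Rad23b, the partner of Xpc, rose by 1.004 ± 0.11 with 5azadC, 0.82 ± 0.11 with VX680 and 0.99 ± 0.11 with both. Ercc1, which with Ercc4 cuts beside a lesion, rose by 0.68 ± 0.10 with VX680 and 1.21 ± 0.10 with both. Mgmt, which strips alkyl groups from guanine, rose by 2.02 ± 0.40 with 5azadC and 1.498 ± 0.41 with VX680. It was at 6.75 ± 1.51 CPM with 5azadC, 4.69 ± 0.524 with VX680 and 3.21 ± 1.22 with both, against 1.68 ± 0.322 CPM in untreated cells (SD, n = 2 each). With both drugs Mgmt was not called (adjusted p = 0.0742). The VX680 call of Mgmt was lost without VX680 replicate 2 (adjusted p = 0.0522) and untreated replicate 1 (adjusted p = 0.0807). With 5azadC, Parp3, a polymerase of ADP-ribose, rose by 1.29 ± 0.14 and the endonuclease gene Mus81 by 0.48 ± 0.13. The Mus81 call was lost without untreated replicate 2 (adjusted p = 0.0633). With VX680, Cetn2, a centrin also found in the Xpc complex, rose by 0.78 ± 0.20, a call lost without VX680 replicate 2 (adjusted p = 0.0845). With both drugs Gtf2h1, a subunit of the TFIIH helicase complex, rose by 0.76 ± 0.12 and the dealkylating enzyme gene Alkbh2 by 0.76 ± 0.24. The Alkbh2 call was lost without 5azadC+VX680 replicate 1 (adjusted p = 0.0762) and untreated replicate 1 (adjusted p = 0.0705).

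Genes of proliferation and S phase were measured beside the repair genes, since both vary with the cell cycle. Of 30, 3 rose and 8 fell with 5azadC, 4 rose and 10 fell with VX680, and 8 rose and 6 fell with both. Of all genes 22.6%, 23.8% and 28.4% rose and 19.6%, 22.4% and 27.3% fell in these comparisons. The proliferation genes' summed level was 4472 to 4913 CPM with 5azadC, 4779 to 4830 with VX680 and 5055 to 5174 with both, against 5045 to 5253 CPM in untreated cells. At the TMM scaling used for CPM here, the single-drug groups thus lay below the untreated range, and the combination overlapped with it. The part of this in the changes of the repair genes was not tested. Calls over all genes also changed in number when 1 library was left out, so the following counts are not particular to proliferation genes. The number of proliferation genes that fell with 5azadC was 2 without untreated replicate 1, 5 without 5azadC replicate 2 and 4 without VX680 replicate 1 or 2 or 5azadC+VX680 replicate 1 or 2. The number that rose with 5azadC was 1 without untreated replicate 1. With VX680, 6 fell without VX680 replicate 1 or untreated replicate 1, 4 fell without VX680 replicate 2, and 7 rose without 5azadC replicate 1 or 2. With both drugs, 10 fell without 5azadC replicate 1 or 2, and 5 rose without 5azadC+VX680 replicate 2 or untreated replicate 1.

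Single cell cycle genes did not move as 1 block. Mki67, a marker of cycling cells, had 576 ± 59.1 CPM with 5azadC, 622 ± 12.9 with VX680 and 652 ± 9.59 with both, against 760 ± 9.35 CPM in untreated cells (SD, n = 2 each). It fell by 0.40 ± 0.09 (adjusted p = 0.00268), 0.29 ± 0.09 (adjusted p = 0.0169) and 0.22 ± 0.09 (adjusted p = 0.0477). The 5azadC call of Mki67 held in all 16 alternatives. Its VX680 call was lost without VX680 replicates 1 (adjusted p = 0.0785) and 2 (0.121) and untreated replicate 1 (0.0553). That with both was lost without VX680 replicates 1 (0.08) and 2 (0.0789), 5azadC+VX680 replicates 1 (0.133) and 2 (0.182) and untreated replicates 1 (0.112) and 2 (0.0829). Library totals alone gave adjusted p = 0.125 for Mki67 with VX680 and 0.307 with both. The call with both was also lost with RLE factors (0.0532) and with the replicate number as a block (0.0595).

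Pcna, the replication clamp, fell by 0.34 ± 0.12 with 5azadC (adjusted p = 0.0433) and by 0.54 ± 0.13 with VX680 (adjusted p = 0.00305), and had -0.28 ± 0.13 with both (adjusted p = 0.0739). The 5azadC call of Pcna was lost without 5azadC replicate 1 (adjusted p = 0.294), VX680 replicates 1 (0.0706) and 2 (0.0703), 5azadC+VX680 replicates 1 (0.0663) and 2 (0.0655) and untreated replicate 1 (0.21). It was also lost with DESeq2 (0.0863), with no filter (0.0629), with limma (0.0564), in a fit of the compared groups (0.106) and with the replicate number as a block (0.0552). E2f1, a transcription factor of S phase genes, fell by 0.32 ± 0.11 with VX680 (adjusted p = 0.0247), a call lost without VX680 replicates 1 (0.0568) and 2 (0.183) and untreated replicate 2 (0.191). Ccne1, the cyclin of S phase entry, rose by 0.53 ± 0.12 with 5azadC (adjusted p = 0.00321) and by 0.49 ± 0.12 with both (adjusted p = 0.00392), calls lost without untreated replicate 1 (0.0627 and 0.0732). Ccna2, the cyclin of S phase and mitosis, rose by 0.28 ± 0.09 with both (adjusted p = 0.0159), a call lost without 5azadC+VX680 replicates 1 (0.0537) and 2 (0.114) and untreated replicate 2 (0.121).

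The p53 targets Cdkn1a and Mdm2 rose strongly in the same libraries. Cdkn1a, the cell cycle inhibitor p21, had 284 ± 13.3 CPM with 5azadC, 348 ± 10.2 with VX680 and 403 ± 5.12 with both, against 41.2 ± 1.78 CPM in untreated cells (SD, n = 2 each). Its log2 fold changes were 2.78 ± 0.10, 3.08 ± 0.10 and 3.29 ± 0.10. Mdm2, which marks p53 for degradation, had 211 ± 4.31, 272 ± 0.216 and 402 ± 2.15 CPM, against 84.9 ± 5.09 CPM in untreated cells, with log2 fold changes of 1.32 ± 0.09, 1.68 ± 0.09 and 2.24 ± 0.09. The adjusted p of these calls was at most 1.6e-07, and each held in all 16 alternatives. Of members known as p53 targets in human cells, only Xpc and Ddb2 are set beside them here, as examples. Xpc fell with 5azadC and with both drugs, and Ddb2 was not called. Other members were not sorted by whether p53 acts on them, and among these Polk rose in each treatment. Which other members are p53 targets, and whether p53 acts on any of them here, was not tested.

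The allele of origin was compared for 35 members with at least 10 allelic reads per library on average, to ask whether treatment shifted the mus share. Fancl had too few reads. No member was called, against 0.282% of 10301 genes with 5azadC, 0.379% with VX680 and 0.515% with both. At an unadjusted p under 0.05 there were 3, 1 and 3 members, and the lowest adjusted p was 0.626, 0.768 and 0.33. This used edgeR's quasi-likelihood test with a term per library, and minimum means of 5 and 20 reads gave 0 as well. H2afx, the member with the most allelic reads, had a mus share of 50% and 53% with 5azadC, 51.0% and 49.7% with VX680 and 51.6% and 50.9% with both, against 50.2% and 49.1% in untreated cells. Its share stayed near the middle in each library. Polk had 38.0% and 38.9% with 5azadC, 46.5% and 47.1% with VX680 and 35.2% and 35.9% with both, against 55.4% and 58.3% in untreated cells. The treated libraries of Polk lay below the untreated ones, a difference that did not pass the adjustment (adjusted p = 0.635 with 5azadC, 0.924 with VX680 and 0.33 with both).

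Over all libraries 30 of the 35 autosomal members had a mus share between 30% and 70%. The other 5 lay on 1 side of an even share in each group. Rad51ap1 had 0 mus reads of 230 allelic reads, which allows a share of up to 1.3%, Fancg had 8.08% and Ddb2 97.7%. Polh had 24.9% and Chek2 25.0%. Over the autosomes the mus share of reads was 46.9% to 48.8% per library. The cause of these shares was not tested.

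Fancb is the X-linked member. Of its allelic reads, 4 of 15 and 0 of 14 were mus with 5azadC, 0 of 15 and 2 of 17 with VX680 and 0 of 15 and 0 of 11 with both, against 1 of 24 in untreated replicate 1 and no allelic read in untreated replicate 2. The share of 26.7% in 5azadC replicate 1 has an exact 95% interval of 7.79% to 55.1%, and that of 4.17% in untreated replicate 1 one of 0.105% to 21.1%. The intervals overlap, and the libraries with 0 mus reads allow shares of up to 20% to 27.3%, so no change of Fancb was detectable at this depth. These limits cover counting error only. Over X-linked genes other than Xist the mus share was 4.94% to 5.38% with 5azadC, 4.87% to 5.03% with VX680 and 5.81% in each library with both, against 4.08% to 4.10% in untreated cells.

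**Figure D5:**
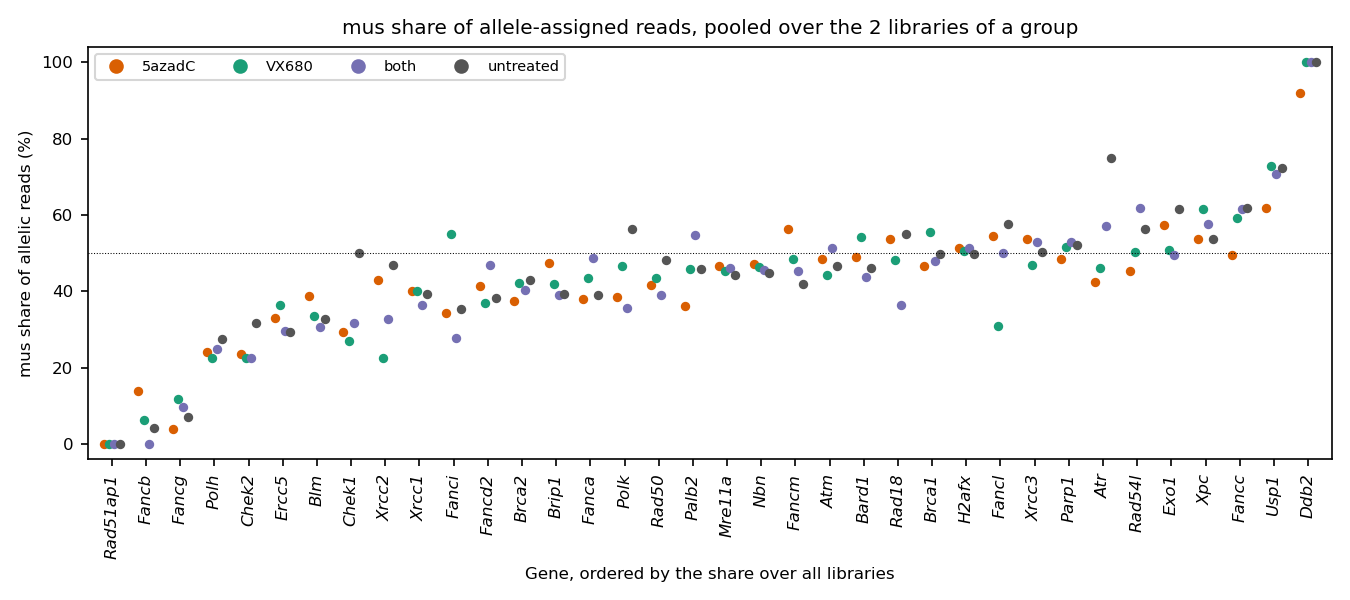
Share of allele-assigned reads from the mus allele (vertical axis, percent), pooled over the 2 libraries of a group, for each repair gene (horizontal axis, ordered by the share over all libraries) in 5azadC, VX680, both drugs and untreated cells. Rad51ap1 lies at 0%, Fancg near the bottom, Ddb2 near the top, and H2afx close to 50%, with the 4 groups side by side.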

How the data were processed

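Total RNA was extracted with Trizol and made into dUTP strand-marked libraries, per the labels' protocols. The submitters' processing notes name TopHat2 2.0.10, HOMER 4.8, edgeR and the mm9 build, without saying what each was used for. The authors deposited 3 kinds of table: raw counts over both alleles, raw counts for the mus and for the cas allele, and a normalized signal. How the signal was scaled is not given in the sources used here. Per the file headers, the count table also gives a gene length, which was used only for levels per kilobase. A set of 8 columns with summed alleles and the authors' tables of differential expression were not used.

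Groups were taken from the sample labels, which name the untreated libraries WT in their titles and control in the count columns. Counts were tested with edgeR 4.0.16 in R 4.3.3 (filterByExpr, TMM, 1 mean per group over all 8 libraries, quasi-likelihood F test, Benjamini-Hochberg adjustment over 12643 genes, threshold 0.05). The SE is the absolute log2 fold change divided by the square root of F. CPM use TMM-scaled library sizes. For allelic counts, 10301 genes averaging 10 or more such reads entered a fit that had 1 term for each library and 1 mus-allele term for each group. Intervals on shares are exact (Clopper-Pearson, 95%) and, like the limit of 3 counts for a share of 0, cover counting error only. The edgeR step was tested on simulated counts.

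Alternatives were DESeq2 1.42.0, RLE factors, library totals alone, other filters, limma 3.58.1 on log2 of the deposited signal plus 1, only the groups compared, the replicate number as a block, and leaving out each library. Where that left a group with 1 library, its spread was assumed to equal that of the other groups. Where a call is said to be lost, the settings named are not always all of those that lost it.

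The members, roles and lists were chosen with earlier results of these data known. Named are members called against untreated cells, with per-library values for the 12 largest changes and for the genes of damage signalling, and the 4 largest rises and falls of the wider list per comparison. Per-library values of Brca1, Bard1, Fanci and the MRE11-RAD50-NBN genes beyond this rule, and the skewed allelic shares, were chosen after their values were seen. Overlapping genes came from GENCODE M21, another build, by name only, with 2 members overlapped on the same strand and 14 on the opposite one. Called members with opposite-strand overlaps not given above are Brca2 (Gm42529), Fancm (Gm47869 and Gm47870), H2afx (Gm44335) and Atr (1700065D16Rik and Gm16794). No coordinates or sequences are given.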

Additional observations from a re-analysis of the deposited data

Results flagged for a closer look

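Members are listed here when the interaction term of the edgeR fit was called (2 libraries per group). This term compares the effect of VX680 with and without 5azadC. Above the sum of the single effects lay 2 members and below it 1, against 4.95% and 10.6% of all genes. For Fancd2 the interaction was 1.01 on the log2 scale (adjusted p = 0.0254). It lost its call without VX680 replicates 1 (0.0936) and 2 (0.0917), 5azadC+VX680 replicates 1 (0.0656) and 2 (0.0967) and untreated replicate 1 (0.104).

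For Brca2 it was 0.66 (adjusted p = 0.0196), a call lost without VX680 replicate 1 (0.12), 5azadC+VX680 replicates 1 (0.0584) and 2 (0.0909) and untreated replicate 1 (0.0668). For Polk it was -0.68 (adjusted p = 0.0435), lost without 5azadC replicate 1 (0.0656), VX680 replicates 1 (0.135) and 2 (0.119), 5azadC+VX680 replicates 1 (0.13) and 2 (0.108) and untreated replicate 2 (0.144). The Polk call was also lost with DESeq2 (0.0891), library totals alone (0.063) and limma on the authors' signal (0.0611). In each of these settings the 3 values kept their sign. Groups of 2 libraries are too small to look for single libraries that stand apart.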

How the results depend on the processing

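The 35 called changes of members gave 557 values under the alternatives, of which 457 kept their call, 100 lost it and 0 changed sign. The calls of Brca2, Xrcc2, Fancg, Brip1 and Polk against untreated cells held in all 16 alternatives in each comparison, as did those of Xpc with 5azadC and of Fanca with both drugs. Replicate numbers did not pair the libraries (correlations of deviations between -0.0622 and 0.0326). With the replicate number as a block, 1 member rose and 8 fell with 5azadC, 1 and 8 with VX680, and 2 and 8 with both, and 5 proliferation genes fell with 5azadC. The causes of the changes below were not tested. Calls over all genes also changed in number between these settings, so the counts below are not particular to the members or lists.

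Against untreated cells, members that rose with 5azadC numbered 2 with no filter. With VX680, 2 rose and 5 fell with library totals alone, and 2 rose and 4 fell with limma. In the wider list 15 fell with VX680 with limma, and with both drugs 23 rose with library totals alone, 23 with limma and 17 in a fit of the compared groups. Proliferation genes that fell with 5azadC numbered 4 with no filter and 3 in the compared groups. Those that rose with VX680 numbered 7 with library totals alone, 7 with limma and 7 in the compared groups, and those that fell 5 with library totals alone and 5 with limma.

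Members higher with both drugs than with 5azadC numbered 0 with DESeq2, 2 with RLE factors, 3 with library totals alone, 2 when genes under a mean log2 CPM of 1 were left out, 4 with limma and 0 in the compared groups. For 5azadC against VX680, 0 were higher with DESeq2, library totals alone, limma and the compared groups, and 1 was lower with library totals alone and with limma. In the interaction 0 lay below the sum with DESeq2, library totals alone and limma. Genes called with both drugs against VX680 numbered 822, with 1299 without a filter and 2014 in the compared groups, and for 5azadC against VX680 1998, with 1283 in the compared groups.

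Leaving out 1 library at a time, members that fell numbered 5 to 9 with 5azadC, 4 to 10 with VX680 and 5 to 11 with both, and those that rose 1 to 2 with 5azadC and 1 to 3 with both. The wider list had 15 to 25, 11 to 35 and 17 to 35 falls, with 5 to 15 rises with VX680 and 8 to 18 with both. Proliferation genes had 1 to 4, 3 to 7 and 5 to 8 rises and 2 to 9, 4 to 13 and 4 to 10 falls. With both drugs against 5azadC the genes called numbered 1629 to 3179, members higher 0 to 4 and lower 0 to 2. With both against VX680 114 to 1566 genes were called. For 5azadC against VX680 it was 801 to 2482 genes, with 0 to 3 members higher and 0 to 1 lower, and for the interaction 948 to 2721 genes, with 0 to 5 members above and 0 to 1 below.

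Some values that were not called changed sign when 1 library was left out. They ran from -0.53 to 0.11 for Xrcc3 with 5azadC and from -0.46 to 0.03 (0.0307) for Fancm with VX680. With both drugs they ran from -0.14 to 0.25 for Chek1, -0.22 to 0.51 for Fancb, -0.47 to 0.02 (0.0196) for Fancm, -0.31 to 0.02 (0.0206) for Fancd2 and -0.0152 to 0.15 for Parp1. For Brca2 with both against VX680 they ran from -0.0534 to 0.15. Chek2 with both drugs turned to 0.0548 with library totals alone and 0.052 with limma.

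Scaling by library totals, or limma on the authors' signal, moved the median log2 fold change of all genes to 0.11 and 0.12 with VX680, 0.12 and 0.12 with both, 0.10 and 0.10 for both against 5azadC and -0.10 and -0.11 for 5azadC against VX680. The share of calls that were higher was 61.8% and 63.0% for VX680, against 51.5% with TMM, and 59.1% and 58.9% for both against 5azadC, against 40.2%. For 5azadC against VX680 it was 38.2% and 37.3%, against 59.1%. With 2 libraries per group and about 2 reads for the thinnest member value (Fancl), small changes of low genes were not detectable.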
